A study of Mus musculus with 4 samples.

Results

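The genes described here are 9 genes of innate immune activation: the pattern receptors Tlr2, Tlr4 and Clec4e, the endotoxin co-receptor Cd14, the cytokines Tnf and Il1b, the interleukin-1 antagonist Il1rn, the itaconate-forming enzyme Acod1 and the granule proteoglycan Srgn. They were chosen by name from earlier results on the same arrays, in which several of them were high in the culture from the hippocampus. Their levels by region are therefore a description and carry no test. Together they were named by 13 of the 22690 probe sets, and by 9 of the 12393 genes that a single-gene probe set stood for. The arrays came from primary astrocyte cultures of CD-1 mice, an outbred stock, at postnatal day 3. The cultures were made from the subventricular zone (SVZ), the ventral mesencephalon (VM), the olfactory bulb (below, the bulb) and the hippocampus, with 1 array per region, and no mutation or treatment other than culture in medium with 10% serum is named for any group. Per the series' design text the tissue of several littermates was pooled before culture; it gives 4 pups in 1 sentence and 3 in the next. Shaking at 200 rpm was used to enrich astroglia before the cells were replated; of 10 astrocyte markers, 8 or 9 were above background in each culture, and Slc1a2 in none. Each region was thus measured once and no p-value could be computed; precision is limited by the number of arrays.

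Innate immune cells sense microbes and damaged tissue through receptors that recognise conserved molecules. Tlr4 binds bacterial endotoxin with the help of Cd14 and the small adaptor Ly96, Tlr2 binds bacterial lipopeptides, and Clec4e (Mincle) is a C-type lectin that binds glycolipids and signals through Fcer1g and the kinase Syk. These receptors activate the transcription factor NF-kappaB, which drives genes such as Tnf, Il1b and Acod1, while Il1rn blocks the interleukin-1 receptor and feedback inhibitors limit the response. In the brain these genes are known mainly from microglia and macrophages, and astrocytes can express a part of them.

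Signal intensities were read on the deposited linear scale, which had a 2% trimmed mean of 400.1 to 400.2 on all 4 arrays. Values below 122.1, the median over all probe sets and arrays, were treated as close to background and raised to this floor before folds were taken, so folds against such values are lower bounds, written "at least". Genes at least 2-fold above each of the other 3 regions were called higher there. Of the 7987 genes above the floor on any array, 199 were called higher in the hippocampus. The hippocampus array had the highest median signal, 136.8 against 115.6 to 117.5, and the lowest hybridisation controls, with all 18 below their signal on the SVZ array by a median of 1.69-fold; their part in the results was not tested. The only measure of technical scatter came from 1977 genes of which 2 probe sets passed the floor on all 4. The difference of hippocampus minus bulb varied between such probe sets with a median-based SD of 0.33 on the log2 scale, which leaves out the spread between cultures.

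The label of a hippocampal set held for some of the genes and not for all. Of the 9 genes, 5 (Acod1, Clec4e, Srgn, Cd14 and Tnf) were at least 2-fold higher in the hippocampus than in each other region, where 2.49% of all genes above the floor were; since this contrast chose the genes, nothing is read from the count. Il1rn was highest in the hippocampus by less than 2-fold. Tlr2 was highest in the SVZ, Tlr4 lay near or under the floor on every array, and Il1b was under it on all 4. Of the 13 probe sets, 11 were above the floor on any array.

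**Figure D1:**
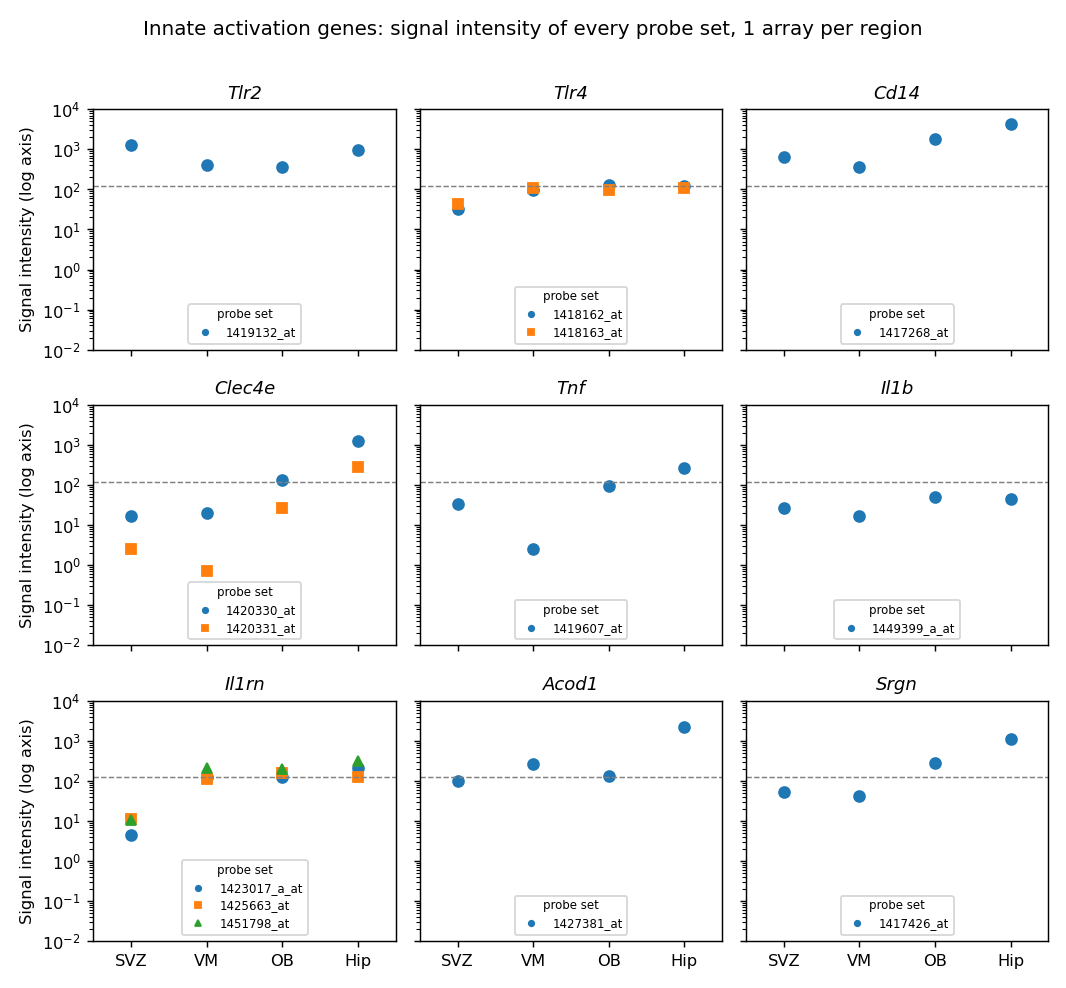
Signal intensity (log axis) of every probe set of the 9 genes in the cultures from the subventricular zone (SVZ), ventral mesencephalon (VM), olfactory bulb (OB) and hippocampus (Hip), 1 array each; the dashed line is the floor of 122.1. The hippocampus holds the highest point for Cd14, Clec4e, Tnf, Acod1 and Srgn, whereas Tlr2 peaks in the SVZ at 1271 and Il1b stays under the floor.

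Acod1, the mitochondrial enzyme that makes the antimicrobial metabolite itaconate from cis-aconitate, had an intensity of 97.2 in the SVZ, 256 in the VM, 133 in the bulb and 2264 in the hippocampus. The hippocampus stood alone, 8.9-fold above the VM, 17.0-fold above the bulb and at least 18.5-fold above the SVZ. The VM came next, 2.1-fold or more above the SVZ, and the bulb lay near the floor. The enzymes around this step lacked a hippocampal excess of that size. Of 11 measured citrate cycle enzymes none was 2-fold higher or lower in the hippocampus than in all other regions. Among all genes above the floor 2.49% were called higher and 0.488% lower, so a lack of calls among 11 genes says little. From bulb to hippocampus the 11 enzymes had a median log2 change of -0.16, beside 4.08 for Acod1. Idh2, a mitochondrial isocitrate dehydrogenase, was the member furthest from the bulb, with 1852 against 580 (3.2-fold), and its levels in the SVZ and VM were 1268 and 400.2.

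Clec4e was named by 2 probe sets, of which the brighter read 16.6 in the SVZ, 19.9 in the VM, 137 in the bulb and 1289 in the hippocampus. The hippocampus was 9.4-fold above the bulb. The second probe set read 2.6, 0.7, 27.5 and 289 in the same order, which is the same order of the bulb and hippocampus and a fold of at least 2.4, and the mean of both probe sets gave a log2 gap of 2.24 against 3.24, and raising the floor to the 70th percentile gave 1.84. The partner genes of Clec4e were less divided between these cultures. Fcer1g, the chain through which Clec4e signals, read 2308 in the bulb and 2798 in the hippocampus, and 27.2 and 19.1 in the SVZ and VM. Clec4d, a related lectin that pairs with Clec4e, read 1389 and 2870 in the bulb and hippocampus (2.1-fold), and the kinase Syk 181 and 381 (2.1-fold). Of the 8 C-type lectin receptors and adaptors above the floor (of 9 measured), Clec4d and Syk were the 2 called higher in the hippocampus, and none was lower. Over all genes above the floor 2.49% were called higher and 0.488% lower. The median difference of the 8 from the bulb was 0.52. The receptor Clec4n (458 and 471) and the adaptor Tyrobp (2940.2 and 3061) were under 2-fold apart between bulb and hippocampus, and the receptor Clec5a passed the floor in the hippocampus alone (209, at least 1.7-fold above the bulb, where it read 78.7).

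Promoter sequences are shown for Acod1, Clec4e and Tnf, called higher in the hippocampus, and for Tlr2, highest in the SVZ by 1.3-fold over the hippocampus. This choice leaves out the windows of Srgn, which are described below. The table of RefSeq start sites used here (GRCm38.p6) was matched by symbol for 7 of the 9 genes, all but Cd14 and Tlr4. The 250 bases before the start are given 5′ to 3′ on the gene's strand. Capitals mark matches, on either strand, to TATAAA (the TATA box), GAGGAA (the core bound by PU.1, a myeloid transcription factor) or the NF-kappaB consensus.
Acod1, chr14:103046762-103047011, plus strand: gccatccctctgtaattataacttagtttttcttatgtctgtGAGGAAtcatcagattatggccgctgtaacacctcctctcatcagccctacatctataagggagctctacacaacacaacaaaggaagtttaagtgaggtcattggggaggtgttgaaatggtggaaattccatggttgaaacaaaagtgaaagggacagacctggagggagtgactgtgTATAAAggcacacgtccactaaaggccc
Clec4e, chr6:123289872-123290121, minus strand: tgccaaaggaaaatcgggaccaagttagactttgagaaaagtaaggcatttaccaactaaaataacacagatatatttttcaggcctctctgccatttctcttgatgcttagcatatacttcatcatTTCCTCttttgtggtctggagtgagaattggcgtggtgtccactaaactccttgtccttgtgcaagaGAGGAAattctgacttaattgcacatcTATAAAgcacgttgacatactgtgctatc
Tnf, chr17:35202008-35202257, minus strand: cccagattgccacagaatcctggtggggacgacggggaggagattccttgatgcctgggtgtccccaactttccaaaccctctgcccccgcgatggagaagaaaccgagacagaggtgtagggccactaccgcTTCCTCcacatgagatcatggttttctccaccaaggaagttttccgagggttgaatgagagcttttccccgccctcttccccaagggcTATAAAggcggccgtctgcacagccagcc
Tlr2, chr3:83841609-83841858, minus strand: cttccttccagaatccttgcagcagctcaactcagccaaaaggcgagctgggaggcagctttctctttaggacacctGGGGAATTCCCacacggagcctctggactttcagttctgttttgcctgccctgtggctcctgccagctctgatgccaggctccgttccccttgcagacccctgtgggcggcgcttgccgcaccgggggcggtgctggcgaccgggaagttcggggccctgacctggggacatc
TATAAA began 28 bases before the start in Acod1 and 29 in Clec4e and Tnf, and GAGGAA or its reverse lay 208 bases before the start in Acod1, 123 and 56 in Clec4e and 117 in Tnf. Tlr2 held neither, and had 2 overlapping matches to the NF-kappaB consensus 173 and 172 bases before its start. Of 32841 such windows in the table, 12.4% held TATAAA, 23.3% GAGGAA, 7.25% the NF-kappaB consensus and 6.75% TGANTCA, the AP-1 motif. Of the 10 windows of the 7 genes, 5 held TATAAA, 3 GAGGAA, 1 the NF-kappaB consensus and 1 TGANTCA. Counts this small tie no motif to a region. Il1b, which was under the floor, also held TATAAA, 31 bases before its start. Of the 3 windows of Il1rn 1 held TGANTCA. Of the 2 of Srgn, which was also called higher in the hippocampus, 1 held TATAAA, further out at 98 bases before its start. Neither window of Srgn held GAGGAA. These matches describe letters and not sites in use.

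Srgn, the core protein of the proteoglycan serglycin that packs granules and secretory vesicles of blood-derived cells, read 51.2 in the SVZ, 41.8 in the VM, 271 in the bulb and 1090.2 in the hippocampus. The hippocampus was 4.0-fold above the bulb, and the latter at least 2.2-fold above the SVZ and VM. Serglycin is also abundant in mast cells, whose proteases Cpa3, Mcpt4, Cma1, Tpsab1 and Tpsb2 were under the floor on every array. Of the 9 mast cell genes measured, Kit (273 in the bulb, 129 in the hippocampus) and Hdc (177 in the hippocampus) were the 2 above it. The cells that Srgn came from were not tested.

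Cd14, the surface protein that hands endotoxin to Tlr4, was above the floor in every culture, with 662 in the SVZ, 368.5 in the VM, 1794 in the bulb and 4436 in the hippocampus. The hippocampus was 2.5-fold above the bulb, 6.7-fold above the SVZ and 12-fold above the VM. The bulb was in turn 2.7-fold above the SVZ. Tlr4 itself read 31.6, 94.9, 129 and 123 by its brighter probe set, and 43.7, 109, 99.1 and 106 by the other, in the order SVZ, VM, bulb and hippocampus. The SVZ lay well under the floor and the other values close to it, so no order of the VM, bulb and hippocampus can be read. The adaptor Ly96 likewise read 140.1, 148 and 144 in those 3 cultures and 72.5 in the SVZ. Among the 6 endotoxin recognition partners above the floor (of 7), 2 were called higher in the hippocampus, where 2.49% of all genes were. They were the scavenger receptor Cd36 (572, with the other 3 regions under the floor, at least 4.7-fold) and the Cd180 partner Ly86 (628, 2.9-fold above the bulb). Lbp, the serum endotoxin carrier, was within 2-fold across all cultures (1766 to 2388).

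Tlr2 read 1271 in the SVZ, 408 in the VM, 370 in the bulb and 949 in the hippocampus. The SVZ and hippocampus were 1.3-fold apart, a log2 difference of 0.42 against a scatter of 0.31 between probe sets for the same contrast, and both were at least 2-fold above the VM and bulb. Without the SVZ array Tlr2 would have been called higher in the hippocampus, by 1.22 on the log2 scale. Of 7 other Toll-like receptors measured, 3 were above the floor. Tlr1, which pairs with Tlr2, read 143, 151, 266 and 427 in the SVZ, VM, bulb and hippocampus. Tlr3, the receptor for double-stranded RNA, was higher in the SVZ (621) and VM (628) than in the bulb (193) and hippocampus (369), and Tlr7, for single-stranded RNA, passed the floor in the hippocampus alone (224).

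The cytokines were low. Tnf, an early inflammatory cytokine, read 33.8 in the SVZ, 2.5 in the VM, 96.8 in the bulb and 263 in the hippocampus. It was above the floor in the hippocampus only, at least 2.2-fold over the others, and this call ended with the floor at the 70th percentile of all signals. Il1b, the interleukin-1 agonist, read 26.1, 16.7, 50.4 and 46.2 in the same order. No difference between cultures can be read at this signal. Il1a was under the floor too, at 16.7 in the hippocampus and at most 1.9 elsewhere.

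Il1rn, the antagonist of interleukin-1, was named by 3 probe sets. The brightest read 10.7 in the SVZ, 209.5 in the VM, 201 in the bulb and 320.3 in the hippocampus, a 1.5-fold excess over the VM. The next read 4.3, 125, 121 and 209.9, also with the hippocampus highest. The remaining probe set read 11, 111, 158.5 and 127, with the bulb highest. All 3 put the SVZ lowest and far under the floor, and the VM and bulb were not separable. Among 14 other genes of the interleukin-1 family and inflammasome measured, 7 were above the floor. Pycard, the inflammasome adaptor, was the gene called higher in the hippocampus (985, 2.4-fold above the bulb), and none was called lower. Over all genes above the floor these shares were 2.49% and 0.488%. Caspase-4 (Casp4) instead read 907 in the SVZ and 1077 in the VM against 141 in the bulb and 206 in the hippocampus. Nlrp3, the inflammasome sensor, was under the floor in all, with 108 in the hippocampus as its highest value.

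Microglia and macrophage transcripts were far more abundant in the bulb and hippocampus cultures than in the SVZ and VM cultures. Of the 28 microglia and macrophage markers measured, the hippocampus had 27 above the floor, the bulb 26, the SVZ 4 and the VM 3. Their summed intensity was 1928.5 in the SVZ, 2132 in the VM, 47122 in the bulb and 57773 in the hippocampus; P2ry12, a microglial receptor, was the marker under the floor on all arrays. Of these 28 markers 3 are also endotoxin recognition partners, 2 are C-type lectin adaptors and 1 is in the alternative activation list. In bulk samples, fewer cells of a type and less RNA per cell cannot be told apart. Of the 9 innate activation genes 2, Cd14 and Srgn, were at least 2-fold higher in both of these cultures than in both others, where 1.64% of all genes were and 22 of the 27 markers. Tlr2 and Cd14 were also above the floor in the SVZ and VM, and Acod1 and Il1rn in the VM; the markers above it there were Cd68, Lyz2, Mpeg1 and Lgmn in the SVZ (175, 179, 221 and 847) and Mpeg1, Cd53 and Lgmn in the VM (412, 320.1 and 780.1).

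Between those 2 cultures the innate activation genes had a larger median difference than the microglia and macrophage markers, and a similar one to the astrocyte markers. The median log2 difference of hippocampus minus bulb was 1.33 over the 8 innate genes above the floor, 1.31 over all 9 with Il1b at 0, 0.44 over the 27 markers and 0.00 over all genes. Of the 9 innate genes, 6 (Acod1, Clec4e, Srgn, Tlr2, Cd14 and Tnf) were at least 2-fold higher in the hippocampus than in the bulb, where 8.69% of all genes and 7 of the 27 markers were; as the genes were chosen for being high in the hippocampus, this is a description. Acod1 (4.08), Clec4e (3.24) and Srgn (2.01) had larger differences than any of the 27 markers, of which Fcgr2b, an inhibitory antibody receptor, was furthest at 1.99, so Srgn and Fcgr2b are not separable. Tlr4 (-0.08) and Il1b (0) lay below 23 of the markers. The lineage markers themselves varied between these cultures. Csf1r, the growth factor receptor of microglia, read 4073 in the bulb and 5099 in the hippocampus, Lyz2 11249 and 9016, and C1qa 3325 and 3527, whereas Cx3cr1, the fractalkine receptor of microglia, read 288 and 739, Cd52 414 and 1359, and Cd53 1095 and 3113. The astrocyte genes also differed, with a median of 1.32 over 9 genes and 5 at least 2-fold higher in the hippocampus, among them Gfap (3800.2 and 10027). They were not uniform: 6 of the 9 read higher in the hippocampus than in the bulb. Gja1 (9010 in the bulb and 5550 in the hippocampus), Glul (3948 and 2891) and, by little, S100b (277 and 269) read lower. The part of other cell types in these differences was not tested.

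**Figure D2:**
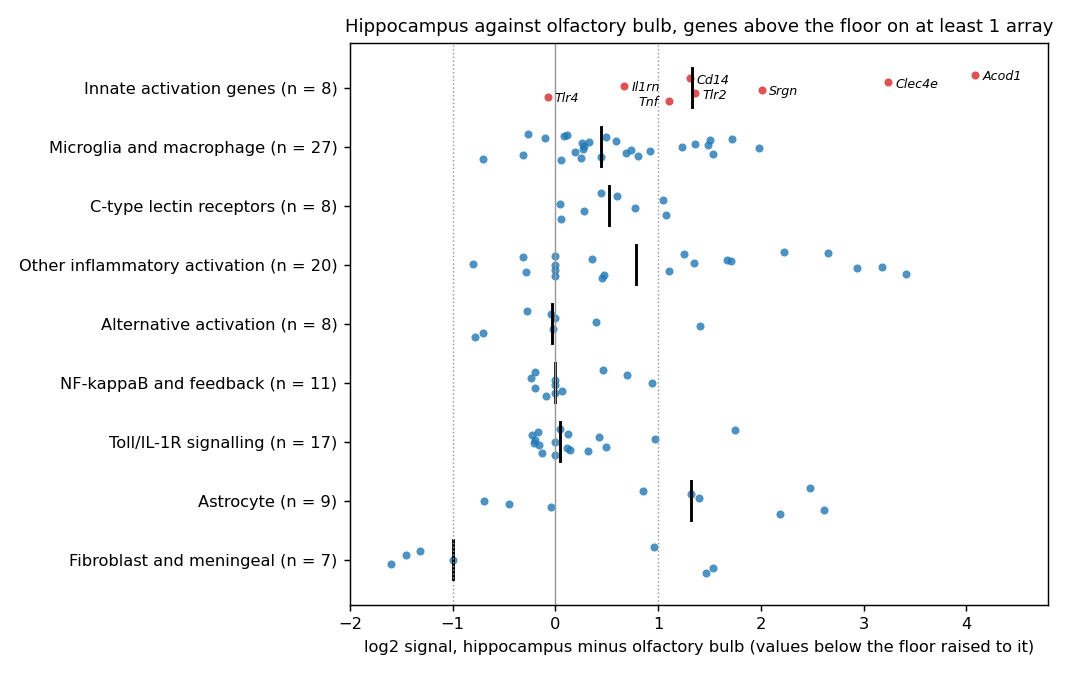
Difference of log2 signal, hippocampus minus bulb, for each gene above the floor on any array; a point is a gene, black bars are list medians, dotted lines mark 2-fold. The innate activation genes (red) have a median of 1.33 and reach 4.08 at Acod1, beside 0.44 for the microglia and macrophage markers and 1.32 for the astrocyte genes.

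Markers of other blood cells were mostly at background. Neutrophils also express Clec4e, and the cells it came from were not tested. Of 11 neutrophil genes measured, 9 were under the floor everywhere, including the granule genes Ngp, Camp, Ltf, Mpo and Elane. The exceptions were the gelatinase Mmp9 (1021 in the hippocampus and at most 34.7 elsewhere) and S100a8 (259 and at most 26.8), and S100a9, the partner of S100a8, read 10.8 in the hippocampus. The summed signal of the 11 genes was 129 to 141 in the other cultures and 1472 in the hippocampus. Most of the hippocampal sum came from Mmp9 and S100a8, so it does not describe the list as a whole. None of the 10 lymphocyte and natural killer cell genes or the 5 dendritic cell genes passed the floor on any array. Of 7 endothelial genes, Cdh5 passed it, in the VM (254.5). The 7 fibroblast and meningeal genes were divided between the hippocampus and bulb, with a median difference of -1.0. Of these, 4 were at least 2-fold lower in the hippocampus (5.23% of all genes were) and 2 at least 2-fold higher (8.69%).

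Other activation genes divided into contrasting groups. Of 20 further inflammatory activation genes above the floor (of 24 measured), 5 were called higher in the hippocampus and none lower than in each other region. Over all genes above the floor 2.49% were called higher and 0.488% lower. The 5 were the scavenger receptor Marco (2169.7, 7.7-fold above the bulb), the chemokines Ccl3 (767, at least 6.3-fold) and Ccl4 (327, 2.4-fold), the formyl peptide receptor Fpr2 (839, 2.5-fold) and the haematopoietic phosphoprotein pleckstrin, Plek (769, 2.1-fold). A second set, which included Lcn2, Ccl2 and Cxcl10, was high in the SVZ and VM and low in the bulb, with the hippocampus between. The iron-binding protein Lcn2 read 17145 in the SVZ, 10077 in the VM, 694 in the bulb and 6298 in the hippocampus. The monocyte chemokine Ccl2 read 8504, 6872, 372 and 1739, and Cxcl10 3661, 5090.0, 114 and 389. Further genes had other orders. The acute phase gene Saa3 was highest in the VM (6533) and next in the hippocampus (4279), 10.7-fold above the bulb. Ptgs2 (392) and Icam1 (884) read lowest in the hippocampus, less than 2-fold under the bulb. Il6 and Ccl5 were high in the VM (5495 and 4803) and under the floor in both the bulb and hippocampus. Over the 20 genes, 10 were at least 2-fold higher in the hippocampus than in the bulb and none at least 2-fold lower. For all genes above the floor these shares were 8.69% and 5.23%. The median of the 20 against the mean of the other regions was nevertheless -0.44.

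As lists, the signalling and feedback genes of the pathway did not have the median hippocampal excess of the innate genes. None of 17 Toll and interleukin-1 receptor signalling genes, 11 NF-kappaB factors and feedback inhibitors or 8 genes of the TNF receptor list above the floor was called higher in the hippocampus, and none was called lower. Over all genes above the floor 2.49% were called higher and 0.488% lower, so the lack of calls in lists this small says little. The list medians of hippocampus minus the mean of the other regions were 0.00061, -0.80 and 0.21, in that order. Over the 8 innate genes above the floor this median was 1.83, and over all 9 with Il1b at 0 it was 1.11. As the innate genes were chosen with high hippocampal levels of several known, their larger median is a description. The feedback inhibitors were high in the SVZ and VM: Nfkbia, which holds NF-kappaB in the cytoplasm, read 9976 and 8960 there, 2818 in the bulb and 4558 in the hippocampus. Tnfaip3, the ubiquitin-editing inhibitor A20, read 579, 1069.9, 0.5 and 37.0, and Nfkbiz, a co-activator of secondary response genes, 3720 (SVZ), 5113, 400.5 and 769. The adaptor Myd88 was within 2-fold across cultures (523 to 791). Ikbke, an inducible kinase of the family, was the signalling gene furthest above the bulb (591 against 175.5, 3.4-fold), with 386 in the SVZ. The receptors of Tnf were within 2-fold across cultures: Tnfrsf1a read 1446 to 2230, lowest in the hippocampus, and Tnfrsf1b 134 to 256.5, highest there. Traf1 was the gene of the TNF receptor list furthest above the bulb. It read 157 in the SVZ, 57.9 in the VM, 32.1 in the bulb and 310 in the hippocampus, at least 2.5-fold above the bulb.

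**Figure D3:**
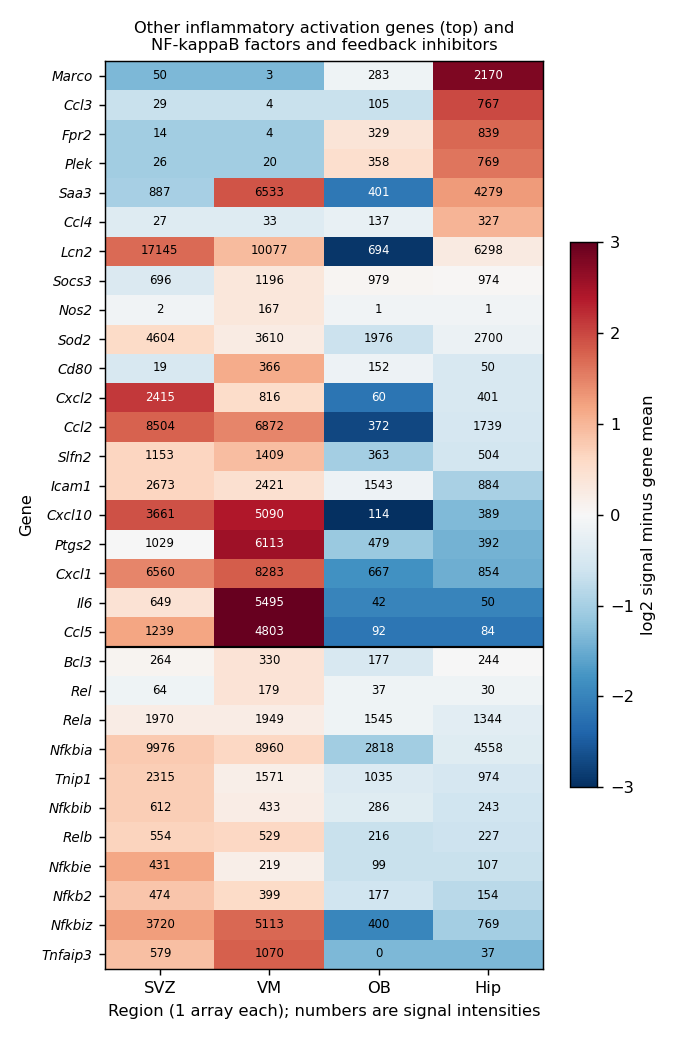
Log2 signal of each gene, after raising values to the floor, minus its mean over the 4 arrays (colour, limited to 3 either way); numbers in the cells are intensities, and the black line separates the further inflammatory activation genes from the NF-kappaB list. Marco, Ccl3, Fpr2, Plek and Ccl4 are highest in the hippocampus, while Nfkbia, Nfkbiz and Tnfaip3 are highest in the SVZ or VM.

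Genes of alternative activation and restraint were in part shared by the bulb and hippocampus. Of the 8 above the floor (of 15 measured), 5 were at least 2-fold higher in both than in the SVZ and VM, where 1.64% of all genes were. They were the mannose receptor Mrc1 (450.0 and 592.5 in the bulb and hippocampus), Tgfb1 (867 and 850.0), Msr1 (738 and 1957), the lipid sensor Trem2 (559 and 342) and Gpnmb (3184.5 and 3087). Msr1, a scavenger receptor, was also called higher in the hippocampus (2.7-fold). Other genes of the list went otherwise. Dusp1 read 5507 in the SVZ, 5867 in the VM, 2651 in the bulb and 2194 in the hippocampus, and Il4ra 428, 185, 107 and 84.7. Zfp36 was lowest in the hippocampus (738, against 1270 in the bulb). The median difference of hippocampus minus bulb over the 8 genes was -0.04. Il10, Cd163, Chil3 and Retnla were under the floor on all arrays, and Arg1 read 109.9 in the hippocampus, just under it, and at most 2.4 elsewhere.

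Genes outside the set with the profile most like that of the innate genes included Cybb and Irf8, both known from phagocytes. The median of the 8 centred log2 profiles was -0.78 in the SVZ, -0.48 in the VM, -0.14 in the bulb and 1.37 in the hippocampus. The 10 nearest of the 7979 other genes, by root mean square distance over 4 arrays (0.11 to 0.15), were Cybb, Dram1, Gatm, Irf8, Blnk, Cd93, Pdgfra, Fam20c, Hcls1 and Prkcb. Cybb, the catalytic subunit of the phagocyte oxidase, read 25.6 in the SVZ, 99.3 in the VM, 176 in the bulb and 493 in the hippocampus, and Irf8, a transcription factor of microglia and macrophages, 16.9, 20.4, 167 and 535. Pdgfra, a receptor of fibroblasts and oligodendrocyte precursors, was among them as well (432 in the hippocampus). Single members had neighbours of their own. The 3 genes nearest to Acod1 were Calml4, Mia and Ccl6, to Clec4e Itih3, Mmp9 and Lrrc23, to Cd14 Ctsc, Arrb2 and Padi2, to Srgn Slc15a3, Cfp and Fpr2, and to Tlr2 Plpp1, Eva1a and Satb1. Those of Il1rn were Trps1, Mylk and Lpcat3; the genes nearest to Tlr4 were Dtnb, Pcdhb20 and Dop1b and those nearest to Tnf Cdh4, S100a8 and Wdr90. For Tlr4, Tnf and Clec4e, which are at or next to the floor on 3 or more arrays, likeness rests largely on values raised to the floor, as the neighbours of Clec4e and Tnf are under it in the SVZ, VM and bulb. The limit reaches further. Of the 10 genes nearest to the median profile, all but Dram1 and Fam20c were under the floor in the SVZ and VM. So were the neighbours of Srgn, and those of Acod1 were under it in the SVZ and bulb. Among the neighbours of Tlr2, Eva1a and Satb1 were under it in the VM and bulb. Arrb2, near Cd14, was under it in the VM, Padi2, also near Cd14, in the SVZ and VM, and Mylk, near Il1rn, in the SVZ. Their likeness also rests in part on raised values.

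**Figure D4:**
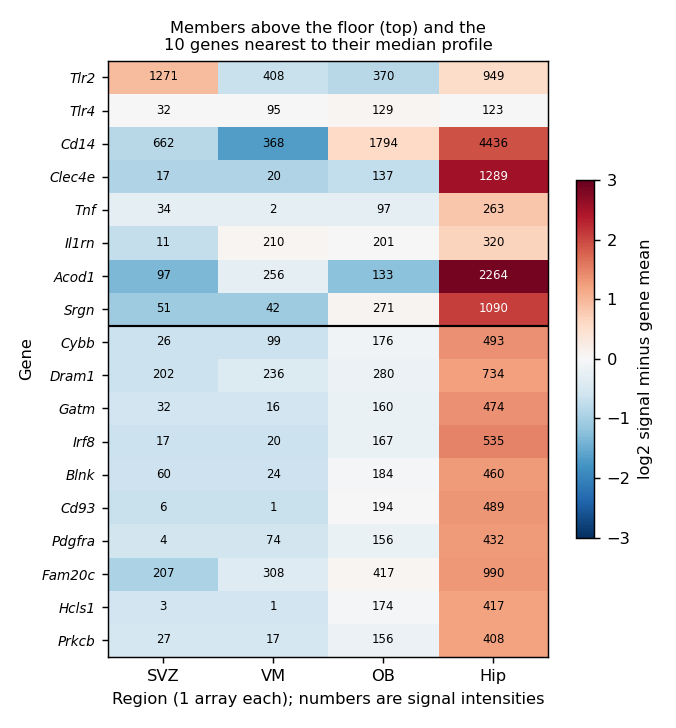
Log2 signal of each gene, after raising values to the floor, minus its mean over the 4 arrays (colour), with intensities in the cells; the 8 innate activation genes above the floor are on top and the 10 genes nearest to their median profile below. All 10 neighbours peak in the hippocampus, with intensities of 408 (Prkcb) to 989.5 (Fam20c), whereas Tlr2 peaks in the SVZ and Tlr4 is flat.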

How the data were processed

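RNA of 4 astrocyte cultures was measured on Affymetrix mouse arrays, 1 per region. The authors deposited a linear signal intensity for each of 22690 probe sets, made with GCOS 1.4 per the submitters' processing notes; its algorithm and settings are not given in those notes, and no detection calls were used. Promoter windows are those of RefSeq, GRCm38.p6. The arrays share a trimmed mean, so the deposited scaling was kept; it assumes similar totals between cultures. Of the probe sets, 20380 had 1 gene symbol in the platform annotation (20351 matched by gene identifier to RefSeq), 691 had several and 1555 none listed, beside 64 controls. The probe set of highest mean log2 signal represented a gene. The calling rule was tested on simulated data with independent noise on each array, which leaves out the spread between cultures. No test between regions was possible. Genes named are the 9 members, list genes called in the hippocampus or furthest from the olfactory bulb, and nearest profiles; any others were picked with values in view. The members and lists were chosen with earlier results of these data known. Alternatives were 2 other floors, the mean of a gene's probe sets, quantile normalization, and leaving out arrays or genes. Python 3.11.15, numpy 2.4.6 and pandas 2.3.3 were used.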

Additional observations from a re-analysis of the deposited data

How the results depend on the processing

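No paired analysis was possible because each region has 1 array. Under the 4 alternatives run for every result (a floor at the 70th percentile, 360, or at 50; the mean of a gene's probe sets; quantile normalization), the count of innate genes called higher in the hippocampus was 4 or 5, and it was 6 without the SVZ array. The count higher in both the hippocampus and bulb was 1 under the 70th percentile floor, and the innate median minus the marker median between those cultures was then 1.27 against 0.89. The innate median against the mean of the other regions, 1.83, was 1.57 without the VM array, 2.13 without the bulb array and 1.11 over all 9 genes, an alternative chosen after seeing the data. Tlr2 reversed to 1.22 without the SVZ array, and Tnf was at 0 under the 70th percentile floor. The log2 gap to the next region rose to 4.08 for Acod1 without the VM array, and to 2.74 for Cd14 and 3.16 for Srgn without the bulb array; with the 70th percentile floor it was 1.84 for Clec4e, 1.6 for Srgn and 2.65 for Acod1. The other 30 values for counts and medians stayed within 1.5 times or the scatter between probe sets, and 61 of 63 values for single genes kept their side of 2-fold. Signals under the floor carry no order, which limits Il1b, Tlr4 and Tnf.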
